A study of Danio rerio with 4 samples.

Results

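The genes described here are those of the cell division cycle and of DNA replication, read by RNA-seq in whole zebrafish larvae at 4 dpf. They were chosen by a rule on symbols, applied to the names in the deposited table, which uses no measured value but was written with earlier results of these data known. In all 90 of 19143 genes matched, under 89 different symbols, since *rrm2* stands on 2 identifiers. By role 31 belong to replication, 31 to mitosis, 14 are cyclins or cyclin-dependent kinases and 10 are inhibitors of these kinases. The other 4 matched by letters only and are given at the end. The libraries came from *nlrc3l* st73 homozygous mutants, in 2 pools, and from their heterozygous and wild-type siblings, in 2 pools. Each genotype was sampled as 10 larvae in a first pool and 12 in a second, without treatment apart from the staining used to sort them. *nlrc3l* encodes a NOD-like receptor, and larvae were sorted beforehand with neutral red, which stains microglia. In the paper's staining method live larvae are immersed in this dye together with PTU, which the paper uses against pigmentation. Only larvae without stained microglia went into the mutant pools, and only larvae with normal microglia into the sibling pools. The paper states that genotypes were also checked by PCR and restriction digest before the libraries were made.

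A dividing cell copies its DNA in S phase and parts the copies in mitosis. Origins are marked by the origin recognition complex, loaded with the MCM helicase with help from Cdc6, and fired by kinases that bring in Cdc45 and GINS. Cyclins switch the cyclin-dependent kinases on, CDK inhibitors of the CIP/KIP and INK4 families hold them off, and E2F factors turn on much of the S phase programme. In a larva of this age dividing cells sit beside large amounts of tissue that has left the cycle, and whole-larva RNA holds both.

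Each gene has 1 value here, the authors' mean normalized count over all 4 libraries. That value counts reads, so a long transcript collects more of them than a short one at the same number of molecules. Transcript lengths of the study's annotation were not used here, and the order of genes below is an order of reads and not of transcript number. The value pools both genotypes. Neither a difference between mutants and siblings nor the spread between pools is therefore given, and no test was made. The depth of each library is unknown from these values. The mean normalized counts summed to 8721330 over the table and ranged upward from 9.18, with the median gene at 125.7. The mutated gene, *nlrc3l* (ENSDARG00000099936), had a mean normalized count of 42.8 over both genotypes together, which does not check the labels. Markers of the main tissues of a larva were all read, with mean normalized counts of 46825 for the muscle myosin light chain *mylpfa*, 69336 for the skin keratin *krt4*, 2057 for the neuronal *elavl3* and 833 for the liver gene *fabp10a*. The retinal *rho* had 7095 and the gut gene *fabp2* had 2201.5. Lower values were 304 for the blood gene *hbae1.1*, on the first of its 2 rows, 260 for the heart gene *myl7* and 206 for the lens gene *cryaa*.

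The 90 genes were read at about the depth of a typical gene of the table, which holds none below 9.18 mean normalized counts. Shares of all genes given here cover only genes with a row. Their median mean normalized count was 103, against 125.7 for the table, and 42 of them, or 46.7%, lay above the table's median, where by construction as many genes lie above as below. With all genes cut by mean normalized count into 4 bins of equal size, the lowest bin held 26 of the 90, the next bins 22 and 25 and the highest bin 17. Together they took 0.205% of all normalized counts. Within the set values ran from 14.2 for *e2f5* to 1547 for *pcna*, and over the whole table from 9.18 to 143382. The medians of the replication, mitosis, cyclin and kinase, and inhibitor genes were 97.9, 101, 103 and 103 mean normalized counts. Medians of the roles inside the groups ran from 25.6 for the 3 INK4 inhibitors to 1547 for the sliding clamp, a role of 1 gene. Roles hold fewer genes than groups, and medians of few genes vary more, so the spread of roles was not compared with that of groups.

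**Figure D1:**
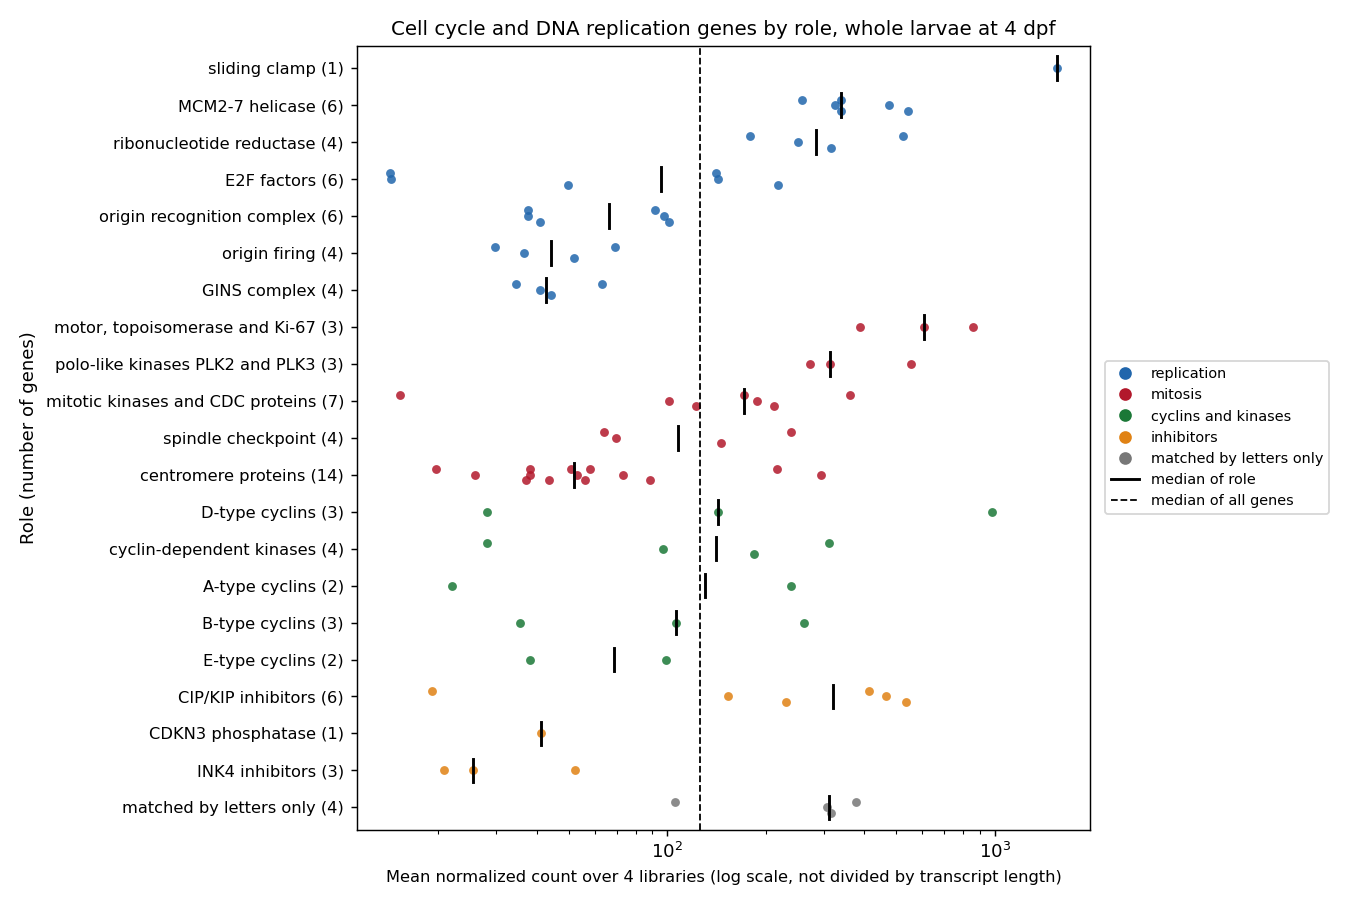
Each point is 1 gene, placed by its mean normalized count over 4 libraries on a log axis and by its role on the other axis, with the number of genes in parentheses. Short black lines are the medians of the roles and the dashed line is the median of all genes, 125.7. All 6 MCM2-7 genes lie to the right of the dashed line and all 6 origin recognition genes to its left.

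Among the replication genes, *pcna* was read most. It encodes the sliding clamp that holds DNA polymerases on the template, and its mean normalized count of 1547 exceeded that of 95.8% of all genes. The MCM2-7 helicase has 6 subunits, which assemble as one ring with a single copy of each. Their mean normalized counts were 257 for *mcm3*, 325 for *mcm6*, 338 for *mcm5*, 339 for *mcm2*, 476 for *mcm4* and 544 for *mcm7*. All 6 were above the table's median. In ribonucleotide reductase, which makes deoxynucleotides, the large subunit gene *rrm1* had a mean normalized count of 526 and the DNA damage-linked small subunit gene *rrm2b* had 316. The symbol *rrm2*, that of the S phase small subunit, had 179 on ENSDARG00000020711 and 252 on ENSDARG00000078069. No row carried the newer symbol *rrm2l*, and whether either identifier is that gene was not tested. Reads that fit both *rrm2* identifiers could have been split or dropped by the counting, so the value of either is uncertain.

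The factors that choose and fire origins were read less. The 6 origin recognition genes ran from 37.5 mean normalized counts for *orc5* and 37.7 for *orc6* through 41.0 for *orc2*, 91.6 for *orc4* and 97.9 for *orc3* to 101 for *orc1*, all below the table's median. The loading factor gene *cdc6* had 69.5, *cdc45*, whose product joins the helicase when an origin fires, had 52.0, the kinase gene *cdc7* had 36.6 and *mcm10*, which acts in firing, had 29.8. The GINS subunits, which form a tetramer on the active helicase, were *gins3* at 34.5, *gins2* at 41.0, *gins1* at 44.2 and *gins4* at 63.3 mean normalized counts. None of these 14 genes was above the table's median. The lowest MCM2-7 value, 257, was thus above the highest of them, 101, although lengths were not taken into account and no error is known for either value.

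**Figure D2:**
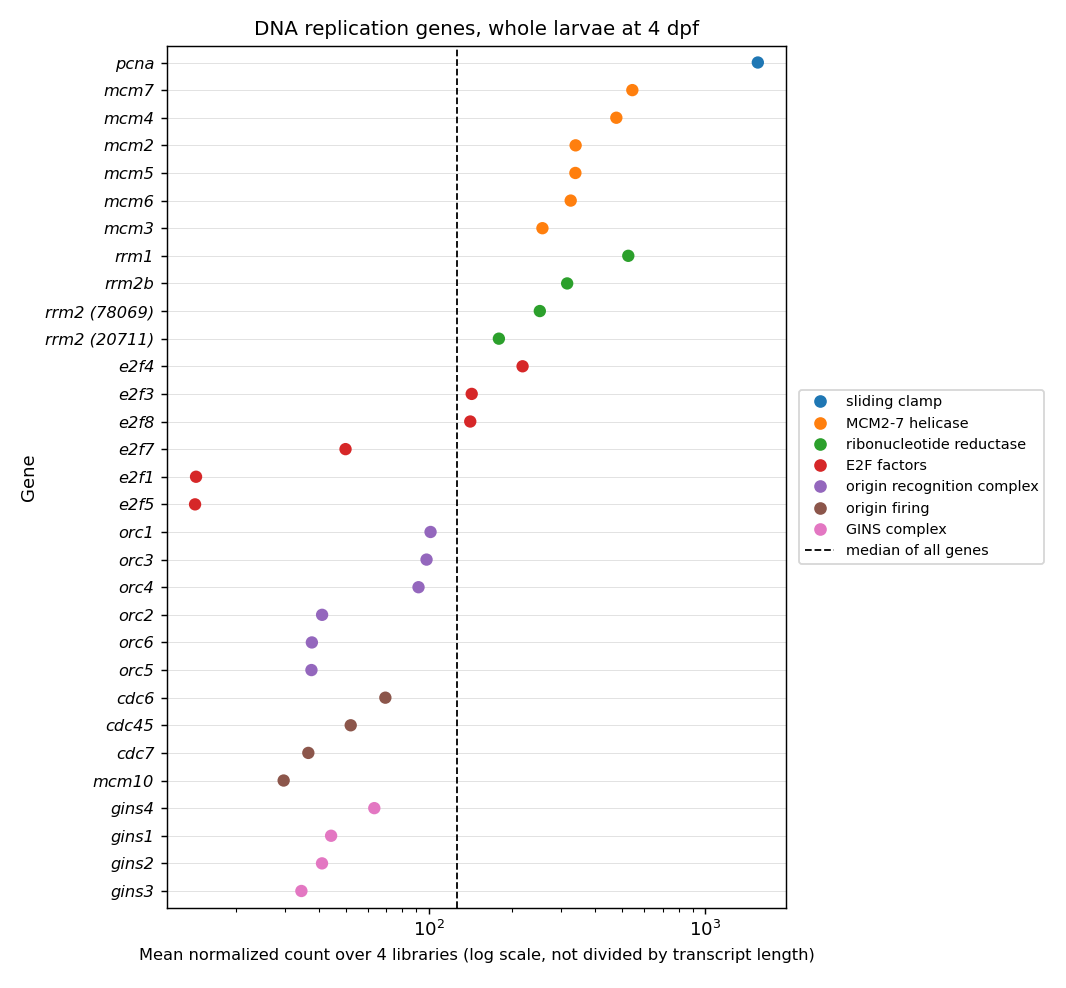
Each point is 1 replication gene, named on the vertical axis and coloured by role, at its mean normalized count over 4 libraries on a log axis. The numbers beside *rrm2* are the last digits of its 2 identifiers, and the dashed line is the median of all genes, 125.7. The points run from *pcna* at 1547 to *e2f5* at 14.2.

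The E2F factors ran from the lowest value of the set to the middle of its range. *e2f4*, known in mammals as a repressor in resting cells, had the highest mean normalized count of the 6, at 218. *e2f3*, an activator, had 143 and the atypical repressor *e2f8* had 141, while the other atypical repressor, *e2f7*, had 49.8. The activator *e2f1* and the *e2f4* relative *e2f5* were near the bottom of the table, at 14.3 and 14.2, with 5.45% and 5.32% of all genes below them. By newer names, *e2f6* and *e2f2* also have a row, under clone-based names that the choice by symbol did not match, with mean normalized counts of 224 and 28.2.

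Of the mitosis genes, the proliferation marker *mki67*, whose product coats mitotic chromosomes, was read most, at 857 mean normalized counts. *top2a*, the topoisomerase that untangles sister chromatids, followed with 607, and *kif11*, the motor that pushes spindle poles apart, had 388. Among mitotic kinases *plk1* had 361, *aurkb* of the chromosomal passenger complex 212, *aurka* of the spindle poles 123 and *plk4*, which starts centriole duplication, 101. The anaphase activator *cdc20* had 187, and of the phosphatases that activate CDK1 *cdc25b* had 172 and *cdc25d* 15.3 mean normalized counts. The other polo-like kinases, known in mammals more for stress and neuronal roles than for spindle assembly, had mean normalized counts of 272 for *plk2a*, 315 for *plk2b* and 555 for *plk3*.

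The spindle checkpoint delays anaphase until each kinetochore is attached. Its genes had mean normalized counts of 239 for *bub3*, 146 for *bub1*, 69.5 for *bub1bb* and 63.9 for *bub1ba*. The 14 genes with centromere protein symbols were grouped by name, without a check that each acts at the centromere. Of these 2 were above the table's median, *cenpe*, a kinesin of the kinetochore, at 294 and *cenpf*, of the outer kinetochore, at 216. Both encode very large proteins. The remaining 12 ran from 19.7 for *cenpo*, 26.0 for *cenpl* and 37.2 for *cenph* to 73.2 for *cenpx* and 88.3 for *cenpp*, with a median of 51.9 over all 14. *cenpu* and *cenpt* have rows under clone-based names, with 79.4 and 60.7.

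Within each cyclin family 1 gene took most of the reads among the members with a row. The D-type cyclin gene *ccnd3* had no row under its symbol or identifier, so it has no value here. No row carried the newer symbol *ccnb1l* either. *ccnd1*, whose product answers growth signals in G1, had a mean normalized count of 983, against 143 for *ccnd2a* and 28.1 for *ccnd2b*. The S and G2 phase cyclin *ccna2* had 239 and *ccna1*, known for germline use in mammals, 22.1. Of the mitotic cyclins *ccnb1* had 261, *ccnb3* 106 and *ccnb2* 35.4. The G1/S cyclins were *ccne2* at 99.4 and *ccne1* at 38.0. Of the kinases, *cdk1*, the partner of cyclin B, had 311, the cyclin D partners *cdk4* and *cdk6* had 184 and 28.1, and *cdk2*, the partner of cyclin E, had 97.1 mean normalized counts.

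The medians of the CIP/KIP and INK4 inhibitors were 321 and 25.6 mean normalized counts, although their ranges overlapped. Of 6 CIP/KIP genes, whose products bind cyclin-CDK complexes, 5 were above the table's median. They were *cdkn1bb* at 537, *cdkn1a*, the p53 target that encodes p21, at 467, *cdkn1ba* at 412, *cdkn1ca* at 230 and *cdkn1d* at 153 mean normalized counts, while *cdkn1cb* had 19.2. None of the 3 INK4 genes, whose products bind CDK4 and CDK6, was above it, with 52.5 for *cdkn2a/b*, 25.6 for *cdkn2c* and 20.8 for *cdkn2d*. *cdkn3*, a phosphatase that acts on CDKs, had 41.3.

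**Figure D3:**
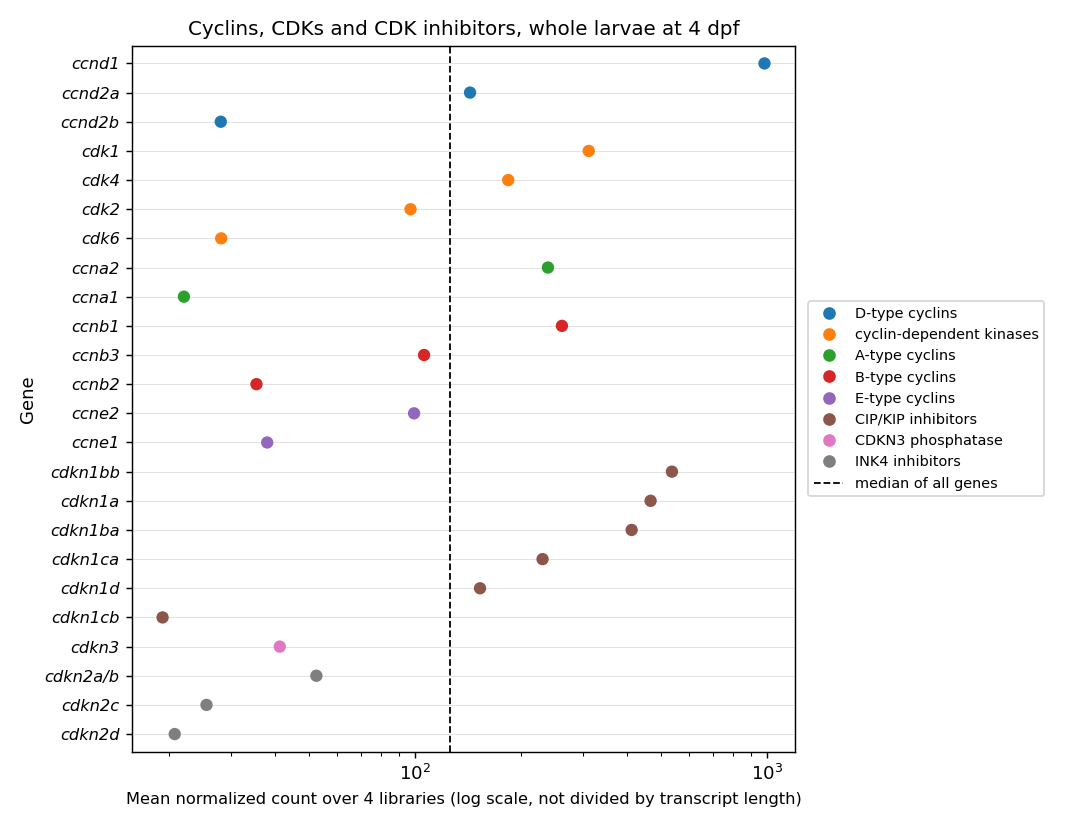
Each point is 1 cyclin, cyclin-dependent kinase or inhibitor gene, coloured by family, at its mean normalized count over 4 libraries on a log axis. The dashed line is the median of all genes, 125.7. *ccnd1* at 983 is the farthest to the right, and 5 of the 6 CIP/KIP inhibitors lie right of the dashed line with all 3 INK4 inhibitors left of it.

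The zebrafish genome keeps many genes in duplicate copies, named with a final a or b. The copies of some pairs had near-equal reads and those of others did not. *cdkn1ca* had 12.0 times the mean normalized count of *cdkn1cb*, and *ccnd2a* had 5.11 times that of *ccnd2b*. *cdkn1bb* had 1.30 times that of *cdkn1ba*, *plk2b* 1.16 times that of *plk2a* and *bub1bb* 1.09 times that of *bub1ba*. *aurka* and *aurkb*, which the naming would also pair, are different kinases and not copies of this kind, and *aurkb* had 1.73 times the mean normalized count of *aurka*. The ratios hold for reads, and the lengths of the copies were not compared.

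Genes of the same processes outside the choice by symbol were read at similar or greater depth. They were listed with earlier results of these data known. The listed *clspn* of the fork and *incenp* of the spindle had no row under these symbols, so the shares below leave them out. Of 28 genes of the replication fork, such as polymerases and clamp loaders, 15 were above the table's median, with a median of 129 mean normalized counts. *rfc1*, of the clamp loader, had 11453 and *pole2*, of the leading strand polymerase, 42.0. The other clamp loader genes of the list, *rfc2*, *rfc3*, *rfc4* and *rfc5*, had 105 to 185, far below *rfc1*, and whether the gene model of *rfc1* also collects reads of another transcript was not tested. Of 25 kinetochore and spindle genes, with *ube2c* counted on each of its 2 identifiers, 17 were above the median, from 52.3 for *cep55l* to 410 for *tpx2*, which nucleates spindle microtubules. Of 10 condensin and cohesin genes 9 were, from 90.1 for *smc1a* to 2462 for *rad21a*, the cohesin subunit that separase cuts. Of 12 genes of the Rb and DREAM regulators 6 were, from 75.5 for *lin52* to 317 for *tfdp1a*, the partner of E2F. Of the genes chosen by symbol 14 of 31 replication genes and 14 of 31 mitosis genes, or 45.2% of each, were above the median. These replication genes include the 6 E2F factors, 3 of them above the median. The mitosis genes include *plk2a*, *plk2b* and *plk3*, all 3 above it.

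The 4 genes matched by letters only were *aurkaip1*, a protein of the mitochondrial ribosome named for binding Aurora A, at 377 mean normalized counts, *cdc73* of the Paf1 transcription complex at 308, *cdkn2aipnl* at 316 and *cdkn2aip* at 105. Without them the remaining 86 genes had a median of 100.2 and 39 lay above the table's median.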

How the data were processed

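Total RNA of pooled whole larvae was made into stranded, poly(A)-selected libraries, each sequenced paired-end on 2 flow cells. The authors used Trimmomatic for trimming and HISAT2 for alignment and, per the submitters' processing notes, counted them with featureCounts of Subread 1.5.2 and used DESeq2 in R 3.3.1, with GRCz10 (danRer10) as the build. The strand setting of the counting is not given in the sources used here. The label of the deposited values says that both ends had to map, so a read in this text may stand for a pair. The value used is a signal that the authors deposited as baseMean, the mean over 4 libraries of counts divided by DESeq2's size factors.

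The same table also holds the authors' own comparison of mutants over siblings (log2 fold change, standard error, statistic, p-value and adjusted p-value), and a second table holds genes chosen by it. These columns were not used. Libraries are grouped by the genotype label, but the table has no column for 1 library or 1 genotype, so no comparison was made. The design foresaw levels per kb of coding length. As the reference tables gave only the genomic span of a gene, mean normalized counts were used as they are, and the ratios of group medians, the promoter motifs and the protein identities of copies were not computed.

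Members were found by matching symbols, and members and lists were chosen with earlier results of these data known. The genes named are all members of small role groups, the 4 highest and 3 lowest of larger ones, the copies of a pair and the extremes of each list. 4 genes that match only by newer names were added after the values were seen. The RefSeq symbols *ccnb1l*, *cenpa*, *cenpq* and *rrm2l* match the rule but stood on no row. Whether these genes have a row under another name was not settled, so their families may be incomplete here. The identifiers named *CCNB1IP1* (ENSDARG00000104639) and *MCM6* (ENSDARG00000033231, a further identifier beside the *mcm6* row used) also had no row. By symbol 87 of the 90 genes were found in RefSeq's GRCz12tu annotation, where the span of 32 overlaps another gene, *cdkn2a/b* and *mtap* among them. The 32 also include *mcm2*, *mcm3*, *mcm6*, *mcm7*, *orc1*, *orc5*, *orc6*, *gins1*, *pcna*, *mki67*, *top2a*, *cdk1* and *cdk4*. Reads of the 32 may be shared with the genes they overlap, which for *mcm7* are only microRNAs and for *mki67* only a long noncoding RNA. The share of overlapping genes over all genes was not computed, and this annotation differs from the study's build. The code that counts genes above the table's median was tested on simulated data. Python 3.11.15, numpy 2.4.6, pandas 2.3.3 and matplotlib 3.10.9 were used.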

Additional observations from a re-analysis of the deposited data

How the results depend on the processing

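The count of 42 genes above the table's median was 39 without the 4 genes matched by letters only and 33 among the 63 genes with a mean normalized count of 50 or more, where the table's median rises to 204. It was 43 when 4 genes that match by newer names were added, a choice made after seeing the data. The median of 103 mean normalized counts was 100.2, 101 and, as a geometric mean, 111 under the like changes. It rose to 216 with the minimum of 50, since that setting drops the lowest genes. With that minimum the members changed side. Their share above the table's median was 52.4%, against 46.7% for all 90 genes. Their median of 216 was above the table's 204, whereas 103 was below 125.7. Division by coding or transcript length was not run. Leaving out a library was not possible, and no paired analysis was possible because the table has no values per library. What limits the values is that neither their replicate error nor transcript length is known.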
